A study of Bos taurus with 8 samples.

Results

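Of the 8 T-box and limb patterning genes considered here, *TBX2*, *TBX3*, *TBX5*, *TBX15*, *TBX18*, *SP9* and *EN1* had counts, 7 of the 18871 genes in the table. *PITX1* was not analysed here, because the table used here has no row under that symbol. The genes were chosen by name with their levels in these libraries already known. Their differences between the depots are therefore given as a description, without a test.

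RNA was sequenced from 8 clones of bovine preadipocytes, each grown from a single cell by limiting dilution. Of these, n = 4 (IMF1 to IMF4) came from the stromal vascular fraction of intramuscular fat dissected from the longissimus dorsi muscle, and n = 4 (SF1 to SF4) came from subcutaneous fat of a site that the labels do not give. All the donors were adult Angus-cross steers, so both groups share breed type and sex, and no agent or genotype separates the groups. Only clones able to form fat cells were used, and selection for growth and shape limits how far they stand for all cells of a depot. The study's methods describe RNA from undifferentiated clones, whereas the deposited design places adipogenic induction before sequencing, so the state of the cells is not settled by the sources used here. Within a depot each clone came from another tissue sample, which IMF and SF clones share an animal was not given, and the sources differ on the number of steers. A clone shows 1 cell of its depot.

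T-box proteins are transcription factors that bind DNA through a shared domain, the T-box. In the embryo *TBX5* marks and starts the forelimb, *PITX1* marks the hindlimb, and *EN1* and *SP9* act in the limb ectoderm. *EN1* there specifies the ventral side, and *SP9* helps to keep the apical ectodermal ridge, the signalling edge of the bud. *TBX2*, *TBX3*, *TBX15* and *TBX18* are expressed in limb or trunk mesenchyme, and the last pair of these is known from the patterning of the scapula and the skeleton. In fat, *TBX15* and *EN1* are among the developmental genes whose levels differ between depots. *EN1* also marks cells of the embryonic dermomyotome that give rise to dermis, brown fat and muscle.

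The libraries held between 19654917 and 29308882 counts, and 17616 to 18178 genes were detected in each. A level of 3 counts, used as the floor of detection, corresponded to 0.0981 to 0.165 CPM, the count scaled to the library's size with TMM factors. Such floors cover counting error only. Genes that mark other cell types were checked beside the members, and a gene is called higher or lower here where it passed the threshold, an adjusted p under 0.05 by edgeR's quasi-likelihood test and a log2 fold change of at least 1 in size. All 10 skeletal muscle genes were higher in IMF, with a summed level of 940 to 1100 CPM against 0.901 to 31.4 CPM in SF, and *MYOD1* and *MYOG* were at 0 in every SF clone. All 10 endothelial genes were likewise higher in IMF (159 to 182 against 2.72 to 4.4 CPM), with *KDR*, *CD93* and *EMCN* at 0 in SF. Both lists thus move with every depot difference given here, and their part in the members' results was not tested. In bulk RNA, fewer cells of a type and less RNA per cell cannot be told apart. The 10 preadipocyte and fibroblast genes summed to 23600 to 24800 CPM in IMF and 47200 to 53200 CPM in SF, most of it from *COL1A1* (12400 against 30100 CPM) and *COL1A2* (10400 against 18200 CPM), while *DLK1* averaged 1.29 and 0.685 CPM. In 6 of the 10 the depots overlapped, and *PPARG* and *COL1A1* were lower in IMF by that threshold. Below the fold limit, *PDGFRA* (184 against 131 CPM, log2 fold change 0.49, edgeR adjusted p = 0.0214) and *COL1A2* (-0.8, edgeR adjusted p = 0.00432) also differed. Of 7 leukocyte genes 1 was higher and 2 were lower in IMF (17.5 to 40.3 against 56.3 to 84.2 CPM). Of 5 epithelial genes 2 were higher (*KRT14* and *CDH1*, the latter at 0 in SF; 12500 to 18400 against 10600 to 16500 CPM). Of 4 Schwann cell genes 1 was higher (*MBP*, at 0 in SF) and 1 was lower (18.1 to 21.4 against 13.6 to 24.9 CPM).

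Without a test, all 7 genes had a smaller mean in IMF than in SF, and in each of them the 4 SF clones lay above the 4 IMF clones in CPM. Over all 18339 genes tested, 14.1% separated in that way, and 8.82% were past the threshold in either direction, 4.04% being lower in IMF. Because the members were chosen on these same values, nothing is read from their count. In *TBX5* and *SP9* the difference was between detection and near absence, whereas the other 5 genes were expressed in both depots and differed by 2.11 to 3.39 times in mean CPM.

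**Figure D1:**
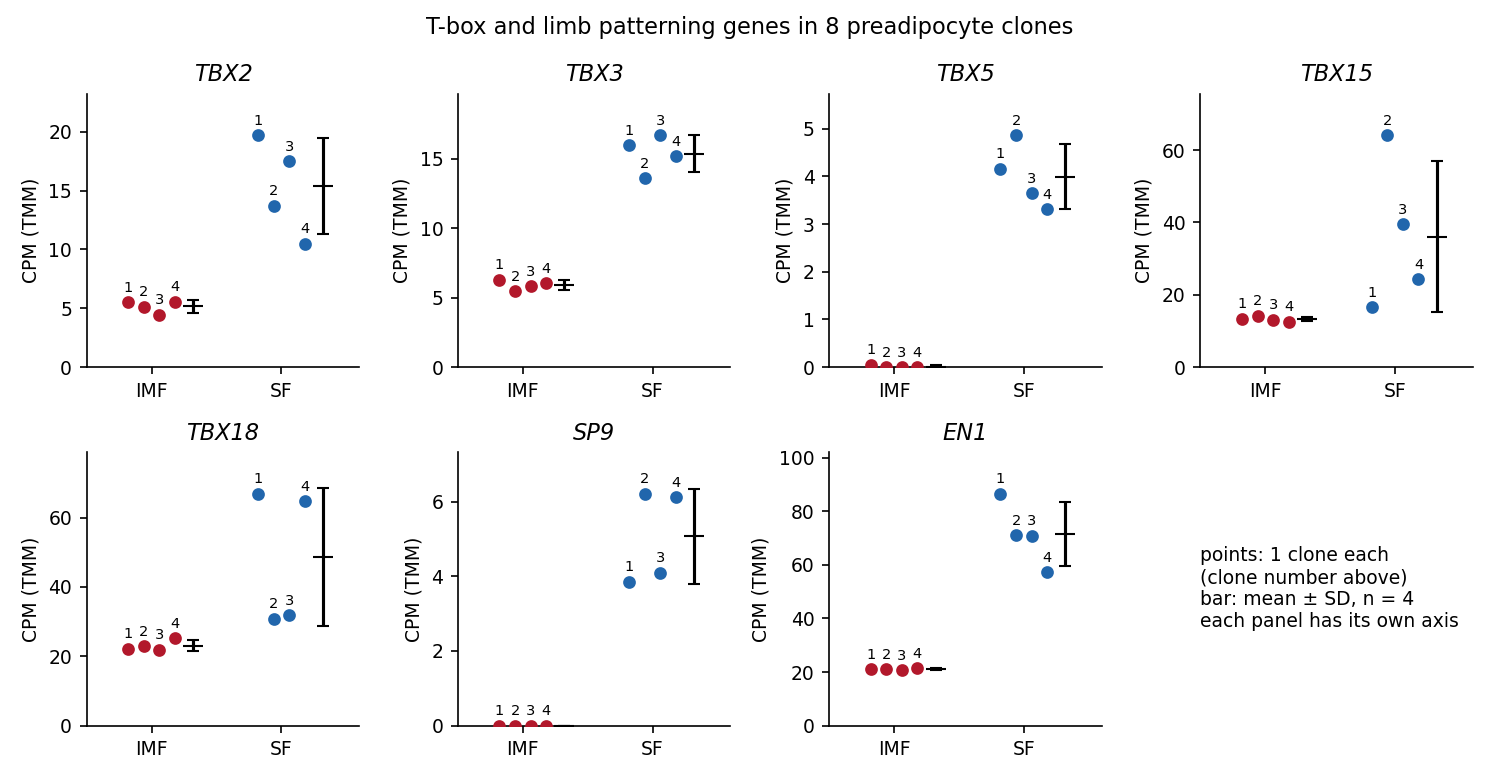
Level of each member in each clone, in CPM on a linear axis from 0 that differs between panels, with one numbered point per clone and a bar for the group mean ± SD (n = 4). *SP9* and *TBX5* sit at or near 0 in the IMF clones, and in the other 5 genes the IMF points lie close together below the SF points.

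*TBX5*, the forelimb T-box factor, lies at chr17:60267428-60317389 of the assembly ARS-UCD2.0. Its counts were 81, 97, 90 and 60 in SF1 to SF4, but 1, 0, 0 and 0 in IMF1 to IMF4. The mean in SF was 3.99 ± 0.673 CPM (SD, n = 4), at least 30.7-fold higher than a floor of 3 counts in each IMF library. A single *TBX5* read was thus assigned among 89812639 counts of the IMF clones.

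*SP9*, a zinc-finger factor of the SP family, lies at chr2:22449123-22451576. Counts of 75, 124, 101 and 111 were found in SF1 to SF4, and 0 in all IMF clones. At 5.07 ± 1.27 CPM in SF (SD, n = 4), it was at least 38.9-fold higher than the same floor. In neither gene did a clone of one depot come near the range of the other. An overlapping long non-coding gene (LOC132342957) is annotated at the *SP9* locus, and whether the counting used strand is described differently in the sources, so reads of the pair may not be separable.

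*EN1* (engrailed homeobox 1, chr2:70609301-70615227) had the largest ratio among the 5 members expressed in both depots. Its counts were 439, 646, 454 and 450 in IMF1 to IMF4 and 1686, 1418, 1746 and 1040 in SF1 to SF4. The level was 21.0 ± 0.346 CPM across IMF clones and 71.4 ± 11.9 CPM across SF clones (SD, n = 4 each), a ratio of 3.39. The log2 fold change (IMF minus SF) was -1.76, with an approximate standard error (SE) of 0.12. Each SE given here is the size of the fold change over the square root of edgeR's quasi-likelihood F. For the members it is a description and not a test. The groups were far apart, since the lowest SF clone was still 2.68 times the highest IMF clone. Within SF the level lay between 57.3 CPM in SF4 and 86.5 CPM in SF1.

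*TBX2* (chr19:11657381-11692635) and *TBX3* (chr17:60087849-60102076) encode closely related repressors. *TBX2* had 115, 157, 98 and 117 counts in IMF1 to IMF4 and 383, 273, 432 and 191 counts in SF1 to SF4. For *TBX3*, the IMF clones gave 131, 167, 129 and 127 counts, and 311, 271, 412 and 276 were found in SF1 to SF4. No clone of one depot reached the range of the other for either gene. *TBX2* averaged 15.3 ± 4.06 CPM in SF against 5.17 ± 0.519 CPM in IMF (SD, n = 4 each), with a log2 fold change of -1.57 (SE 0.2). *TBX3* averaged 15.4 ± 1.35 CPM in SF against 5.91 ± 0.348 CPM in IMF, with a log2 fold change of -1.38 (SE 0.1). Within SF, *TBX2* ran from 10.5 CPM in SF4 to 19.7 CPM in SF1, while *TBX3* stayed between 13.6 and 16.7 CPM. A pseudogene and a protein-coding gene without rows here (LOC112442589 and LOC132343005) overlap *TBX2*.

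*TBX15* (chr3:24129577-24255592) and *TBX18* (chr9:64661942-64689761), a pair of closely related T-box genes of the limb and trunk mesenchyme, were the members with the widest scatter in SF. For *TBX15*, 279, 433, 289 and 264 counts were found in IMF1 to IMF4 and 321, 1280, 973 and 441 in SF1 to SF4. For *TBX18* the counts were 462, 700, 482 and 531 in IMF1 to IMF4 and 1304, 617, 783 and 1176 in SF1 to SF4. SF1, the lowest SF clone for *TBX15*, was the highest for *TBX18*, and SF2 held the opposite places. *TBX15* averaged 36.1 ± 21.0 CPM in SF against 13.3 ± 0.666 CPM in IMF, with a log2 fold change of -1.44 (SE 0.37). *TBX18* averaged 48.6 ± 19.96 CPM in SF against 23.0 ± 1.55 CPM in IMF (SD, n = 4 each), with a log2 fold change of -1.08 (SE 0.27). The margin between the depots was narrow in both, as the lowest SF clone was 1.16 times the highest IMF clone for *TBX15* and 1.22 times for *TBX18*. Without SF2 the log2 fold change of *TBX15* was -1.01, and without SF1 or SF4 that of *TBX18* was -0.88 or -0.9. A long non-coding gene (LOC112445963) overlaps *TBX15*, and it has no row here.

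In SF1, SF2, SF3 and SF4 respectively, *TBX15* measured 16.5, 64.1, 39.5 and 24.3 CPM. *TBX18* measured 66.9, 30.9, 31.8 and 64.8 CPM in those clones. The clones thus ran SF2, SF3, SF4, SF1 from high to low for *TBX15*, and in the reverse order for *TBX18*, where SF2 and SF3 were within counting error of each other and change places in TPM (22.8 and 22.6). Per length, in length-corrected TPM units, the ratio of *TBX15* to *TBX18* was 1.0 in SF2 and 0.6 in SF3, but 0.119 in SF1 and 0.181 in SF4. All IMF clones fell between these pairs, at 0.24 to 0.298.

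**Figure D2:**
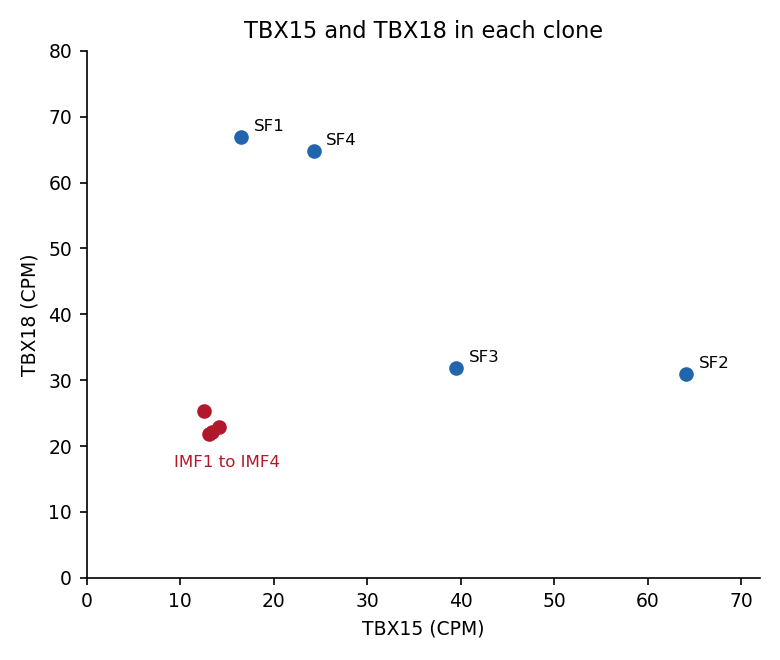
*TBX15* against *TBX18* in CPM, one point per clone. The 4 IMF clones form one tight group, whereas SF2 and SF3 are high in *TBX15* and SF1 and SF4 are high in *TBX18*.

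These orders were common in the SF clones. Of 11962 genes with at least 50 counts in every SF clone, 1070 (8.94%) had the order of *TBX15*, the most frequent of the 24 possible orders, and 678 (5.67%) had that of *TBX18* in CPM, the third most frequent, where an even spread would give 4.17% each. More broadly, SF2 and SF3 both exceeded SF1 and SF4 in 24.9% of these genes, and the opposite held in 18.6%. Among 46 genes of the limb lists described below that passed the same count, 13 (28.3%) went the way of *TBX15*, including *MSX2*, *PRRX1*, *TWIST1*, *IRX3*, *IRX5* and *EMX2*. Another 9 (19.6%) went the way of *TBX18*, among them *TBX1*, *OSR1*, *FGFR2*, *WNT5A* and *ALDH1A3*. These shares were near those of all genes. The summed level of 7 smooth muscle and pericyte genes was 11000, 4010, 3250 and 7200 CPM in SF1 to SF4, highest in the clones that were high in *TBX18*, which is itself known from mural cells. Much of that sum was *ACTA2* (6490, 2060, 1080 and 3980 CPM). *CNN1* (16341, 4040, 6360 and 7110 counts) and *TAGLN* (69625, 31302, 41805 and 45271 counts) ran in the order of *TBX18* in CPM. *MYH11* (170, 57, 46 and 48 counts) and *MCAM* (104, 3, 3 and 0 counts) were also highest in SF1. The pericyte genes *ABCC9* (3, 78, 143 and 20 counts) and *CSPG4* (2378, 3616, 5038 and 5990 counts) did not follow *TBX18* over these clones. The same list ranged from 2210 to 2480 CPM in IMF, where 2 of its genes were higher (*MYH11*, *MCAM*) and 4 were lower (*ACTA2*, *CNN1*, *TAGLN*, *CSPG4*). Its part in the *TBX18* result was not tested.

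The coefficient of variation (CV) over clones was set beside the CV that counting alone would give, a ratio that also grows with a gene's counts. In SF it was 58.1% for *TBX15* and 41.1% for *TBX18*, 13.7 and 12.2 times the counting value. *EN1* varied by 16.7%, 6.29 times its counting value, and *TBX2* by 26.5%, 4.5 times. For the members with fewer counts these values were 25.0% and 2.5 times (*SP9*), 8.78% and 1.54 times (*TBX3*) and 16.9% and 1.5 times (*TBX5*), so the CV of *TBX5* was close to that of *EN1*. The median CV was 15.0% in SF among genes averaging 50 counts or more, and 95.1% of them varied less than *TBX15* and 88.9% less than *TBX18*. In IMF the same measure stayed at 10.1% for *TBX2*, 5.89% for *TBX3*, 5.0% for *TBX15*, 6.71% for *TBX18* and 1.65% for *EN1*, where the median gene varied by 7.48%. Only 1.68% of genes varied less than *EN1* among the IMF clones. That spread was 0.363 times the counting value, against 0.689 for *TBX3*, 0.873 for *TBX15*, 1.1 for *TBX2* and 1.55 for *TBX18*. At this depth the IMF clones were thus not distinguishable in *EN1*, *TBX3* or *TBX15*, and *TBX2* was near its counting value.

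Levels of different genes were compared per length, as TPM. In IMF the order was *TBX18* (15.8 ± 0.686 TPM), *EN1* (6.27 ± 0.371), *TBX15* (4.41 ± 0.356), *TBX3* (2.03 ± 0.225) and *TBX2* (1.45 ± 0.135; SD, n = 4 each), and no pair of neighbours among these 5 overlapped. *TBX5* and *SP9* followed at the floor. In SF the order was *TBX18* (32.2 ± 11.2 TPM), *EN1* (21.1 ± 4.37), *TBX15* (12.2 ± 7.95), *SP9* (5.76 ± 1.51), *TBX3* (5.21 ± 0.581), *TBX2* (4.29 ± 1.26) and *TBX5* (3.5 ± 0.85; SD, n = 4 each). There the ranges of every pair of neighbours overlapped, so the order in SF was looser. *TBX18* exceeded *EN1* in 4 of 4 SF clones and *TBX15* exceeded *SP9* in 4 of 4, whereas *SP9* exceeded *TBX3* in only 2 of 4.

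The 5 T-box members together made up 22.3 to 24.6 TPM in the IMF clones (mean 23.7 ± 1.0) and 50.4 to 64.1 TPM in the SF clones (57.4 ± 5.82; SD, n = 4 each). *TBX18* provided 65.0 to 69.0% of this sum in IMF. In SF1 and SF4 its share was 69.6 and 69.9%, near that of the IMF clones, but it was 38.4% in SF2 and 44.7% in SF3. There *TBX15* took 38.5 and 26.8%, against 8.26% in SF1, 12.7% in SF4 and 16.5 to 19.8% in IMF. The sum in SF thus varied less over clones than either of its main parts. *TBX3* held a like share in both depots, 7.91 to 9.22% in IMF and 8.21 to 11.8% in SF, and *TBX5* added 4.57 to 7.74% in SF against at most 0.18% in IMF.

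**Figure D3:**
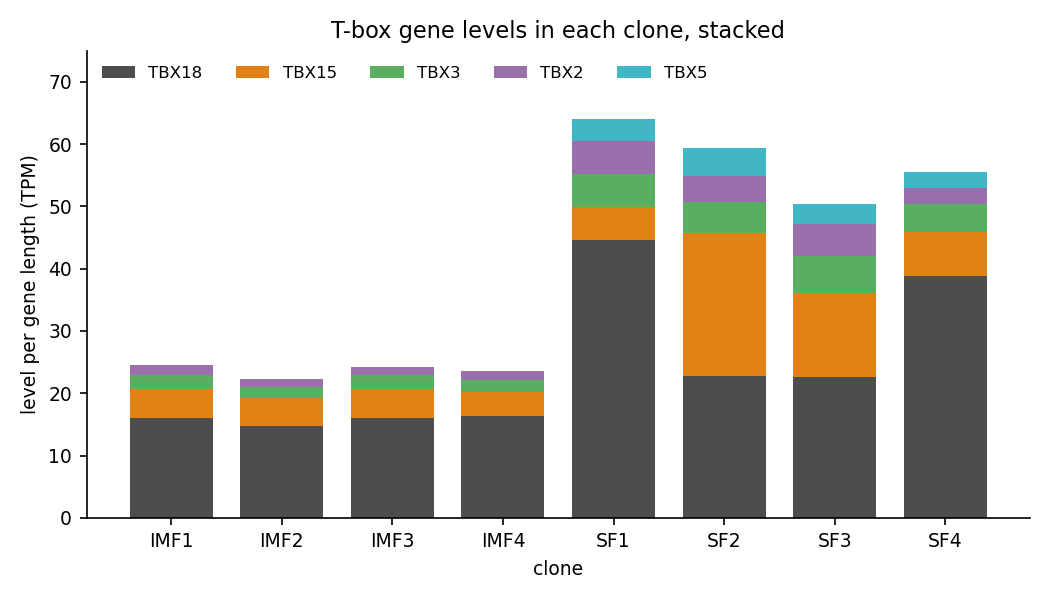
Summed TPM of *TBX2*, *TBX3*, *TBX5*, *TBX15* and *TBX18* in each clone, stacked by gene from 0. The bars reach 22.3 to 24.6 TPM in IMF and 50.4 to 64.1 TPM in SF, and the *TBX15* segment is widest in SF2 and SF3.

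The question of whether other genes of limb patterning differed between the depots was then addressed with 6 lists of 116 genes, 80 of which were tested. Here edgeR was used as above, with p-values adjusted by Benjamini-Hochberg over all 18339 genes. The p-values set the depot difference against the spread between libraries, in which clone and tissue sample cannot be told apart. Animals shared between depots were not modelled in this fit. Of the 80 genes, 18 (22.5%) were past the threshold and lower in IMF and 7 (8.75%) were higher, where 4.04% of all tested genes were lower and 4.78% higher. The median log2 fold change of the 80 was -0.58, against -0.03 over all genes. These lists were drawn up with earlier results in view, and 53 of the genes averaged 100 counts or more.

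**Figure D4:**
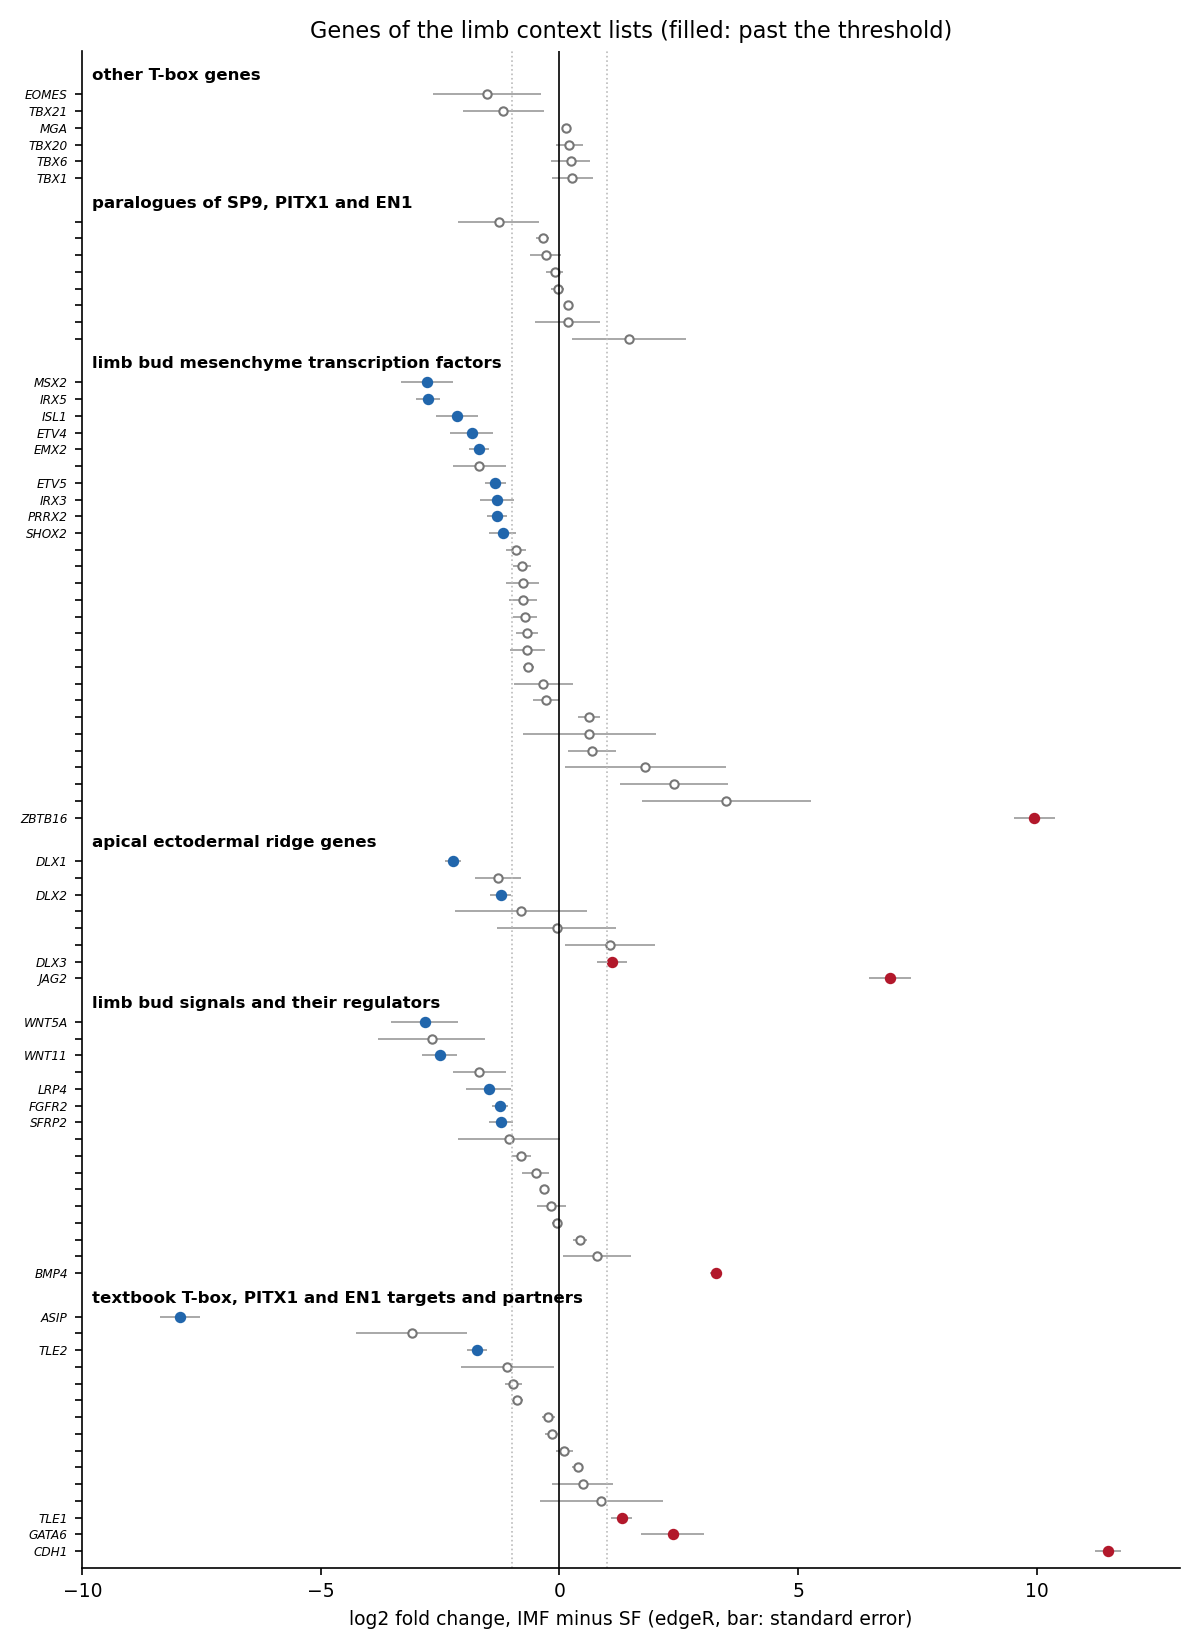
Log2 fold change (IMF minus SF) with its approximate standard error, derived from the test statistic, for each tested gene of the 6 limb lists. Points are filled where past the threshold, and names are given for those genes and for the other T-box genes. Filled points to the left of 0 (18 genes) are lower in IMF and those to the right (7 genes) higher; *ZBTB16* and *CDH1* were at 0 in SF, so their fitted values depend on the prior count.

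None of the 6 other T-box genes tested (*TBX1*, *TBX6*, *TBX20*, *TBX21*, *EOMES* and *MGA*) was past the threshold by edgeR, DESeq2 or limma-voom, and 0 had an unadjusted p under 0.05. Over all tested genes 8.82% were past it by edgeR, so 0 of 6 says little. Their log2 fold changes were 0.27 for *TBX1*, 0.24 for *TBX6*, 0.21 for *TBX20*, 0.13 for *MGA*, -1.18 for *TBX21* and -1.52 for *EOMES*. With 2 to 36 counts per clone for *TBX21* (SE 0.85) and 0 to 24 for *EOMES* (SE 1.13), a difference in these could be missed. In every one of them the depots overlapped. The 8 tested paralogues of *SP9*, *PITX1* and *EN1*, *SP2* and *SP7* among them, also gave 0 calls by the 3 tools, with 1 (*SP2*) at an unadjusted p under 0.05. Beside that share of all genes, 8 genes are also too few to read. *TBX4*, the hindlimb partner of *TBX5*, was not analysed here.

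Transcription factors of the limb bud mesenchyme gave 9 lower and 1 higher of 27 tested genes, with a median log2 fold change of -0.77. *PRRX2*, a paired-type homeobox gene of embryonic mesenchyme, had 204 ± 31.4 CPM in IMF against 507 ± 130 CPM in SF (SD, n = 4 each; log2 fold change -1.31, SE 0.21, edgeR adjusted p = 0.00254). *IRX5*, an Iroquois homeobox gene, showed 107, 142, 125 and 118 counts in IMF1 to IMF4 and 391, 899, 1101 and 591 in SF1 to SF4. Every SF clone lay above every IMF clone, and the log2 fold change was -2.76 (SE 0.25, edgeR adjusted p = 0.000174). Its neighbour in the family, *IRX3*, was lower by -1.31 (SE 0.35, edgeR adjusted p = 0.0256), but SF1 fell within the IMF range, and the call was lost in 8 of 19 alternatives. *EMX2*, a homeobox gene of the scapula, had a log2 fold change of -1.69 (SE 0.21, edgeR adjusted p = 0.000776). *MSX2*, a homeobox repressor downstream of BMP signals, was lower by -2.77 (SE 0.54, edgeR adjusted p = 0.00656), although its SF counts ran from 161 in SF4 to 1032 in SF3 and the call was lost in 2 of 19 alternatives (limma-voom adjusted p = 0.0522). The other 4 lower genes, given by name because they are few, were *SHOX2*, *ISL1*, *ETV4* and *ETV5*. *ETV4* overlapped between the depots and lost its call in 4 of 19 alternatives, and *SHOX2* had a log2 fold change of -0.83 without SF4, below the threshold on fold. *ISL1* is an upstream factor of the hindlimb bud and *ETV4* and *ETV5* respond to FGF signals. In the other direction, *ZBTB16*, a zinc-finger repressor of limb and skeletal patterning, had 115, 147, 119 and 139 counts in IMF1 to IMF4 and 0 in all SF clones. It was at least 37.8-fold higher in IMF (edgeR adjusted p = 9.48e-05), the reverse of the pattern of *SP9*.

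Of 8 tested genes of the apical ectodermal ridge, in which *SP9* acts, 2 were lower and 2 were higher in IMF. *DLX1* had 73, 68, 57 and 56 counts in IMF1 to IMF4 and 257, 235, 375 and 204 in SF1 to SF4, a log2 fold change of -2.23 (SE 0.17, edgeR adjusted p = 7.42e-05). *DLX2*, which lies 11.6 kb from *DLX1* on the same chromosome as *SP9*, was lower by -1.23 (SE 0.22, edgeR adjusted p = 0.00464). The gap between *SP9* and *DLX2* is 2000 kb, so *SP9* is not a close neighbour of the pair. Both distal-less homeobox genes separated the depots completely, with lower levels in IMF. *JAG2*, a Notch ligand of the ridge, was higher in IMF, with 329, 482, 373 and 399 counts against 6, 0, 3 and 2. Its log2 fold change was 6.92 (SE 0.44, edgeR adjusted p = 2.68e-05). With SF near the floor, that value was 7.63 without SF1 and 6.24 with a prior count of 2. *DLX3* was higher by 1.10 (SE 0.31, edgeR adjusted p = 0.0312), a call lost in 9 of 19 alternatives. *TP63*, *FGF8*, *FGF4* and 5 further genes of the ridge list were not analysed here.

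Among 16 tested limb bud signals and their regulators, 5 were lower and 1 was higher in IMF, with a median log2 fold change of -0.93. *BMP4*, a bone morphogenetic protein, had 389, 648, 483 and 378 counts in IMF1 to IMF4 and 41, 37, 48 and 42 in SF1 to SF4. It was the gene of this list that was higher in IMF, at 19.9 ± 1.9 against 2.05 ± 0.202 CPM (log2 fold change 3.28, SE 0.12, edgeR adjusted p = 2.89e-06). *FGFR2*, a receptor for limb FGFs, was lower at 8.42 ± 0.288 against 20.1 ± 5.26 CPM (-1.25, SE 0.17, edgeR adjusted p = 0.0012). *WNT11* was lower by -2.51 (SE 0.36, edgeR adjusted p = 0.00165). *SFRP2*, a secreted Wnt regulator, was lower by -1.22 (SE 0.25, edgeR adjusted p = 0.00786), and its value was -0.98 without SF1. The counts of *WNT11* were 247, 213, 777 and 218 in SF1 to SF4. *WNT5A*, a non-canonical Wnt, had 1492, 125, 324 and 428 counts in SF1 to SF4 against 90 to 125 in the IMF clones (-2.82, SE 0.7, edgeR adjusted p = 0.0202). Without SF1 its log2 fold change was -1.76, and the call was lost in 7 of 19 alternatives, among them those without any 1 of the IMF clones. *LRP4*, a regulator of Wnt and BMP signals in the limb, was lower by -1.48 (SE 0.47, edgeR adjusted p = 0.0491), with -0.77 without SF2 and the call lost in 10 of 19 alternatives.

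Of 15 tested genes known as targets or partners of T-box factors, *PITX1* or *EN1*, 2 were lower and 3 were higher in IMF. *ASIP*, a pigment-signalling gene whose skin expression is linked to *TBX15*, had 489, 913, 573 and 873 counts in SF1 to SF4 and 1 to 5 in the IMF clones (log2 fold change -7.96, SE 0.42, edgeR adjusted p = 9.65e-06). The IMF counts lay near the floor, and the log2 fold change was -7.29 with a prior count of 2. In SF1 to SF4 respectively *ASIP* measured 25.1, 45.7, 23.3 and 48.1 CPM, and its relation to *TBX15* was not tested. *TLE2*, a Groucho-type co-repressor that engrailed proteins recruit, was lower by -1.73 (SE 0.21, edgeR adjusted p = 0.000727), while its relative *TLE1* was higher by 1.31 (SE 0.22, edgeR adjusted p = 0.00298). *CDH1*, the E-cadherin gene that *TBX2* and *TBX3* repress in other cells, had 329, 528, 384 and 311 counts in IMF1 to IMF4 and 0 in the SF clones. It was at least 110-fold higher in IMF (edgeR adjusted p = 1.13e-05). *GATA6*, a zinc-finger partner of T-box proteins in the heart, was higher by 2.37 (SE 0.67, edgeR adjusted p = 0.0329), a call lost in 7 of 19 alternatives, and its value was 3.3 without SF1.

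The nearest genes with a row on each side of the 8 loci, other than the members themselves, were then examined, 28 in all, a pair before and a pair after each. None was past the threshold by edgeR, DESeq2 or limma-voom, although 10 (35.7%) had an unadjusted p under 0.05 and 8 (28.6%) an adjusted p under 0.05. These shares were near those of all tested genes, 37.9 and 25.8%. By edgeR 8.82% of all tested genes were past the threshold, so 0 in a set of 28 says little. Nearest means nearest with a row, and some lay far off, such as *MED13L* at 1190 kb from *TBX3* and *WDR3* at 995 kb from *TBX15*. Their log2 fold changes lay between -0.78 and 0.93, with a median of -0.12. *BCAS3*, only 7.08 kb from *TBX2*, differed by -0.29 (SE 0.08, edgeR adjusted p = 0.0355). *CIR1*, 10.0 kb from *SP9*, had 257, 381, 223 and 215 counts in IMF1 to IMF4 and 151, 215, 268 and 166 in SF1 to SF4, a log2 fold change of 0.23 with overlapping depots. *WARS2*, 30.6 kb from *TBX15*, also overlapped (-0.25). *STEAP3*, 394 kb from *EN1*, had the lowest adjusted p of the 28 and was higher in IMF, opposite to *EN1*, at 0.93 (SE 0.11, edgeR adjusted p = 0.000576). Around the *PITX1* locus, *PCBD2* differed by -0.16 and *TXNDC15* by -0.38 (edgeR adjusted p = 0.0132). *TBX3* and *TBX5* lie 165 kb apart on chromosome 17, and none of the 3 genes annotated between them has a row here.

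**Figure D5:**
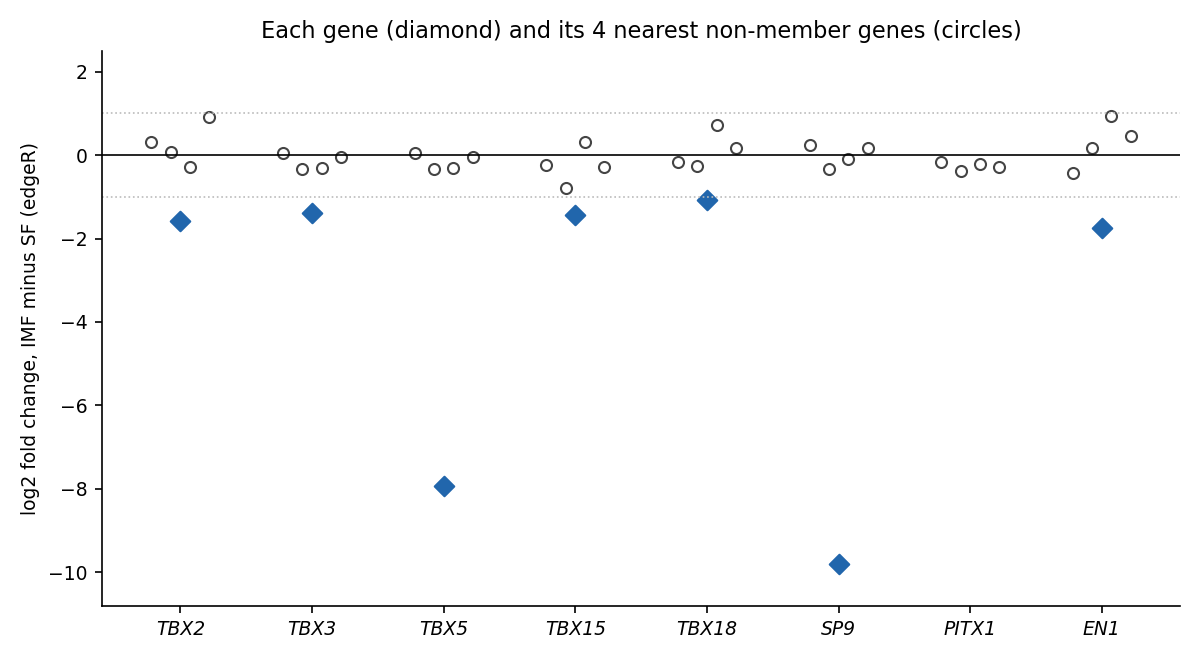
Log2 fold change (IMF minus SF) of each member (diamond) and of its 4 nearest genes with counts that are not members (circles, the pair before it and then the pair after it, distances not to scale); *PITX1* has no diamond, and *TBX3* and *TBX5* share their neighbours. The members lie at or below -1.08, where the fitted values of *TBX5* and *SP9* depend on the prior count, and the neighbours lie between -0.78 and 0.93.

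Genes whose log2 CPM followed each member most closely over the 8 clones were ranked among 15379 genes by Pearson's r. The clones form separate clusters by depot, so these values describe mostly that split and carry no test. Nearest to *TBX2* were *TLE2* (r = 0.99) and *SLC43A1* (0.987), and nearest to *TBX3* were *GLIS2* and *PRDM6* (0.995 each). *TBX18* was followed by *ALDH1A3* and *THBS1* (0.989 each) and *TBX15* by *PARP3* (0.991) and *TACC2* (0.99), which shared their scatter over the SF clones. *ALDH1A3*, a retinoic acid synthesis enzyme, had 125 and 115 CPM in SF1 and SF4 but 69.0 and 69.6 CPM in SF2 and SF3. *SP9* was nearest to the type VI collagen genes *COL6A1* and *COL6A2* (0.998 each), *TBX5* to *WSB2* and *MFAP2* (0.995 each), and *EN1* to *SRPRA* (0.997).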

How the data were processed

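RNA-seq of 4 IMF and 4 SF clones was used. The authors deposited whole-number counts per gene and clone with gene lengths; Trimmomatic 0.39, featureCounts 2.0.2 and STAR 2.7.11a are named in the submitters' processing notes, whereas the paper's methods name HISAT2 and the assembly ARS-UCD2.0. The paper describes TPM, but the deposited columns are counts with unequal totals. The authors' group means and DESeq2 results (fold changes and p-values) were not used, and the row without a gene name was left out (0.0148 to 0.0209% of counts). Table columns of other samples numbered 0. The paper mentions a minimum of 20 counts in total, and 532 genes below it were not tested.

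The 18339 remaining genes were fitted with edgeR 4.0.16 (R 4.3.3; TMM, two-sided quasi-likelihood test, Benjamini-Hochberg adjustment, default prior count of 0.125). Calls needed an adjusted p under 0.05 and a log2 fold change of at least 1 in size. TPM was computed from the deposited length. Bounds used 3 counts in each library of the lower group. DESeq2 1.42.0, limma-voom (limma 3.58.1), other scalings and filters, left-out clones and a clone-number block were alternatives. The edgeR test was tested on simulated data. Gene positions came from RefSeq (ARS-UCD2.0), where 14201 of 18871 symbols matched. Tables and figures were made in Python 3.11.15.

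Members and gene lists were chosen with earlier results of these data known. In each list, genes past the threshold were named, at most 5 per direction by the mean CPM of the higher group. The neighbours past the threshold and the 2 genes most correlated with each member (log2 CPM, prior count of 2, mean of at least 1 CPM) were also to be named. Other neighbours and the genes beyond 5 were named after their values were seen, and some genes that the rule would name are not reported here. The libraries of a group differed by more than counting noise, so none was a second count of the same library. Repeat cultures of 1 clone would also differ in this way, and the check cannot exclude them. For the median gene, the squared difference over its counting variance was 1.47 to 3.79 in IMF pairs and 3.23 to 8.62 in SF pairs. By the paper's description the clones are separate cultures from separate tissue samples within a depot, and animals shared across depots are not given.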

Additional observations from a re-analysis of the deposited data

Results flagged for a closer look

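Among 60 groups of 4 clones checked (32 genes, leaving out groups with at most 3 counts in every clone), 1 clone stood far from the other 3 in 3 groups (5.0%), as many as the 1 in 20 that chance gives. The gap to the nearest clone, as a share of the group's whole range in CPM, was compared with Dixon's 95% critical value for 4 samples. It was 0.889 for *ETV5* in the IMF clones (80, 91, 65 and 64 counts in IMF1 to IMF4), with IMF1 highest. It was 0.897 for *DLX3* in the SF clones, where SF4 had 96 counts and the others 46 to 51. It was 0.903 for *WNT11* in the SF clones, where SF3 had 777 counts and the others 213 to 247. No member was among the 3, where *TBX5* and *SP9* were checked in SF only.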

How the results depend on the processing

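The log2 fold changes of the 7 members were below 0 in all 126 alternative fits. Of these fits, 117 moved them by less than 1 SD between clones, the larger of the SDs of the depots in log2 CPM. That yardstick is wide for *TBX15* and *TBX18*. Their values of -1.01 without SF2 and -0.88 without SF1 count as unmoved, so 117 is no measure of stability for them. Of the 9 that moved further, 8 concerned *TBX5* or *SP9*, whose fitted values depend on the prior count, and 1 concerned *TBX3* (-1.23 with total counts alone). Total counts alone moved the median of all genes to 0.12 and the share of calls higher in IMF from 54.2% to 66.7%. Under that setting 2 neighbour genes (*STEAP3* and LOC107131494) were past the threshold, against 0 with TMM. Testing against a log2 fold change of 1 left 631 of 1618 calls over all genes, with 75.4% of them higher in IMF, and 4 higher and 6 lower limb genes, since a stricter hypothesis is tested. Leaving out 1 clone gave 1332 to 1643 calls over all genes, 5 to 9 higher and 14 to 20 lower limb genes. Of 475 alternative fits of the 25 limb genes called, 418 kept the call, 57 lost it and 0 changed sign. By limma-voom 3 limb signals were lower in place of 5, and 6 mesenchyme factors in place of 9. By DESeq2 these were 7 and 10, with 23 lower limb genes in all in place of 18, and 1996 calls over all genes, 48.9% of them higher in IMF. With the clone number as a replicate block there were 1489 calls over all genes, 6 higher and 14 lower limb genes and 0 neighbours. The numbers are not stated to pair the clones, and deviations of same-numbered clones correlated at -0.0093 to 0.14 over 4 pairs, with 4 of 8 clones closest to their own number. An alternative added after seeing the data left out genes whose 8 counts were all even, *TBX21* and *EOMES* among them, and gave 1613 calls. In SF, *TBX18* ranked 1 among the members by TPM and 2 by CPM, which is not corrected for length. Depth limits *TBX5* and *SP9*, for which only bounds can be given.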
